A study of Mus musculus with 2 samples.

Results

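Adgrv1, Ctnna2, Npas3, Ppp2r2b, S100b and Mmp24 are 6 of the 55415 genes in the gene table, and all are best known from neurons, glia or sensory cells. They were chosen from the contrast of 2 libraries of mouse biliary epithelial cells, the cells that line the bile ducts, because each was among the 10 genes with the lowest ratio of the library labelled Sox9cKO over that labelled Sox9con. That ratio is therefore a description here and supports nothing. The material was liver, and each library is 1 sample of its genotype label, with the allele, the Cre driver, the sex and the age not given in the sources used here. Fixed cells were barcoded by splitting and pooling, with random hexamers and oligo(dT) as primers, and each library occupied first-round wells of its own, 5 for Sox9cKO and 4 for Sox9con. The wells are taken as parts of 1 suspension and give a technical spread only.

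Outside the liver these genes have separate roles. Adgrv1 encodes a very large adhesion G protein-coupled receptor that forms links between the stereocilia of hair cells, and Ctnna2 encodes the neuronal alpha-catenin, which ties cadherin junctions to actin. Npas3 is a bHLH-PAS transcription factor of the developing brain, and Ppp2r2b is a regulatory B subunit that directs the phosphatase PP2A in neurons. S100b is a calcium-binding protein abundant in astrocytes and Schwann cells, and Mmp24 is a membrane-anchored matrix metalloproteinase of the nervous system. Biliary cells are epithelial, carry keratins and cadherin 1, and depend on transcription factors that include Sox9.

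Given next are the promoters of 4 genes whose level turned out to differ between clusters of biliary cells. Each runs from 250 bases before to 50 bases after the start of the gene in RefSeq, read 5′ to 3′ on the gene's strand. Adgrv1, Ctnna2 and Npas3 were highest in the same clusters of cells and S100b was lowest in them. Capitals mark the E-box CANNTG and GGACAGC, a part of the REST site, searched on both strands.
Adgrv1 promoter (GRCm38.p6, chr13:81633095-81633394, minus strand): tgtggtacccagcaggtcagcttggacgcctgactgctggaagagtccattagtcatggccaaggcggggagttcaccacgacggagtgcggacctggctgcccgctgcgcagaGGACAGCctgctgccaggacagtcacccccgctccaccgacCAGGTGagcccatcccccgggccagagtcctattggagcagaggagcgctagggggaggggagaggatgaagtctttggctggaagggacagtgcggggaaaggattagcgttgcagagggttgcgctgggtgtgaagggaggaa
Ctnna2 promoter (GRCm38.p6, chr6:77979618-77979917, minus strand): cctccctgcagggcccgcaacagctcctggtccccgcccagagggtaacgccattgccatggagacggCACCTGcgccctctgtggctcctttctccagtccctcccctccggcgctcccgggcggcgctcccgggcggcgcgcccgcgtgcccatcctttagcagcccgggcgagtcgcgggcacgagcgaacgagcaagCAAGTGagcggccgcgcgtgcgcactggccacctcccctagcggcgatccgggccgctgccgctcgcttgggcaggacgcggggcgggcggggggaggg
Npas3 promoter (GRCm38.p6, chr12:53248182-53248481, plus strand): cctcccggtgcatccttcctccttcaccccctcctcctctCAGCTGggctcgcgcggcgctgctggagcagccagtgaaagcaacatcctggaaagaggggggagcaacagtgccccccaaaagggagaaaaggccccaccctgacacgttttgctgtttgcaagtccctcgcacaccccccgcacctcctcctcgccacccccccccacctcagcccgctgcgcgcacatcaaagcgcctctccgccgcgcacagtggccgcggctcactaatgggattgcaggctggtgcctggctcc
S100b promoter (GRCm38.p6, chr10:76253586-76253885, plus strand): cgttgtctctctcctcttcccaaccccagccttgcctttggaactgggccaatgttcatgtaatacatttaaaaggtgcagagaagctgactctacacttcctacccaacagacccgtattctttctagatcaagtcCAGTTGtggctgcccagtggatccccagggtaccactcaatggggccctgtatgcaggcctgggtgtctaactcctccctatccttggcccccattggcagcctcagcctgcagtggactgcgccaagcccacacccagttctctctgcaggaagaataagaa
Among these 4 windows and that of Mmp24, GGACAGC was present in Adgrv1 alone, against 6.56% of 32851 promoters of the same length. The Adgrv1, Npas3 and S100b windows had 1 E-box each, Ctnna2 had 2 and Mmp24 had 0, while 72.3% of all promoters held at least 1. The SOX motifs ACAAAG (18.7% of all promoters) and ACAATG (12.6%) and the other part of the REST site, TTCAGCACC (0.371%), were in none of these 5 windows, which says only that those letters are absent there. GC content was 53.7% for S100b, 63.3% for Adgrv1, 66.3% for Npas3, 75.3% for Ctnna2 and 80.0% for Mmp24, with a median of 52.7% over all promoters. The genes with the same pattern over cells thus did not share a motif of those searched beyond the common E-box.

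The libraries held 2740 and 3622 cells and shared 0 barcodes. After filtering, the biliary fraction was 2602 cells with 14379486 UMIs (unique transcript counts) in the cKO-labelled library and 3365 cells with 12156717 UMIs in the control-labelled one, at median depths of 5126 and 3227 UMIs per cell. Endothelial-like cells, used for the background, numbered 85 and 122, at median depths of 2399 and 2328 UMIs. Sox9 itself had 1753 UMIs (122 CPM, the UMI count scaled to the library total) in the cKO-labelled and 1769 UMIs (146 CPM) in the control-labelled biliary cells. Its wells overlapped, from 102 to 145 CPM in the former and from 74.4 to 220.2 CPM in the latter, and the count per gene does not tell deleted from remaining exons. The label is therefore not clearly borne out by Sox9, and every direction below rests on the labels. Control-labelled well D9 stood apart, with the highest Sox9 level (220.2 CPM) and the highest median depth of its 4 wells (4347 UMIs). With 1 library per label there is no replicate check and no test, and the 95% intervals cover counting error only.

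All 6 genes were lower in the cKO-labelled biliary cells. Adgrv1 (ENSMUSG00000069170) had 64 UMIs there and 504 in the control-labelled cells, a log2 ratio of -3.21 (-3.62 to -2.84). Ctnna2 (ENSMUSG00000063063) had 56 and 282 UMIs, for a log2 ratio of -2.56 (-3.02 to -2.16). Npas3 (ENSMUSG00000021010) had 98 and 412 UMIs, which puts its log2 ratio at -2.31 (-2.65 to -1.99). Both adhesion genes and the transcription factor were thus low, but not absent, in the cKO-labelled library. Ppp2r2b (ENSMUSG00000024500) had 215 and 831 UMIs, a ratio of -2.19 (-2.42 to -1.97), and S100b (ENSMUSG00000033208) had 46 and 174, a ratio of -2.15 (-2.66 to -1.69). Mmp24 (ENSMUSG00000027612) had 7 and 253 UMIs, with a log2 ratio of -5.31 (-6.75 to -4.35), and stood closest to absence. Of 9326 genes with at least 200 UMIs, 1.79% were at least 2-fold lower in this comparison, and the median log2 ratio was -0.07. The count behind that share depended on well D9, since 167 genes were called with it and 421 without it. The members held ranks 1, 3, 6, 8, 9 and 10 from the lowest, S100b being the last inside the 10 at -2.15 and Apobec3 the first outside at -2.13. Actr3-ps, Gm42031, A230001M10Rik and Rhoj held the other 4 ranks.

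Few control-labelled cells held each transcript. A UMI of Ppp2r2b was found in 404 of 3365 cells (12.01%, exact binomial interval 10.9 to 13.2), of Adgrv1 in 251 (7.46%, 6.59 to 8.40) and of Npas3 in 248 (7.37%, 6.51 to 8.31). Mmp24 was found in 234 cells (6.95%, 6.12 to 7.87), S100b in 153 (4.55%, 3.87 to 5.31) and Ctnna2 in 127 (3.77%, 3.16 to 4.47). In the cKO-labelled library, whose cells were deeper, the counts were 108 of 2602 cells for Ppp2r2b (4.15%), 57 for Npas3 (2.19%), 46 for Adgrv1 (1.77%), 44 for Ctnna2 (1.69%), 42 for S100b (1.61%) and 7 for Mmp24 (0.269%). At an equal depth of 2000 UMIs the control-labelled shares were 7.92% for Ppp2r2b, 5.28% for Adgrv1, 4.60% for Npas3, 4.14% for Mmp24, 2.86% for S100b and 2.71% for Ctnna2, over 2802 cells with 563 shallower cells left out. The cKO-labelled shares were then 2.11%, 0.853%, 0.853%, 0.0406%, 0.812% and 0.568% in the same order, over 2463 cells with 139 left out. For every gene the share was lower in the cKO-labelled cells both before and after the depths were made equal. That direction follows from the choice of the genes on the same UMIs and supports nothing. The same comparison over all tested genes was not made.

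The transcripts differed in how they were spread among the cells that held them. Ctnna2 was the most concentrated: 60 of its 127 cells held 2 or more UMIs, these cells carried 76.2% of its UMIs, and 16 cells held 5 or more. For Adgrv1 110 of 251 cells held 2 or more, with 72.0% of its UMIs and a highest count of 14 in 1 cell of 1826 UMIs. Ppp2r2b was alike, with 170 of 404 cells and 71.8% of its UMIs, and Npas3 had 87 of 248 cells and 60.9%. S100b and Mmp24 were seen nearly always as a single UMI, in 136 of 153 cells and in 219 of 234. The variance of the count over its mean, in cells thinned to 2000 UMIs, was 2.84 for Ctnna2, 2.33 for Ppp2r2b, 1.87 for Adgrv1 and 1.58 for Npas3, but 1.14 for Mmp24 and 1.11 for S100b, where 1 is the value of a count spread evenly at random. Single cells weighed on the cKO-labelled sums. 1 cell of well A12 held 32 of the 215 UMIs of Ppp2r2b and 1 cell of well A11 held 14 of the 98 of Npas3, and without the top cell of each library these log2 ratios were -2.39 and -2.50.

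**Figure D1:**
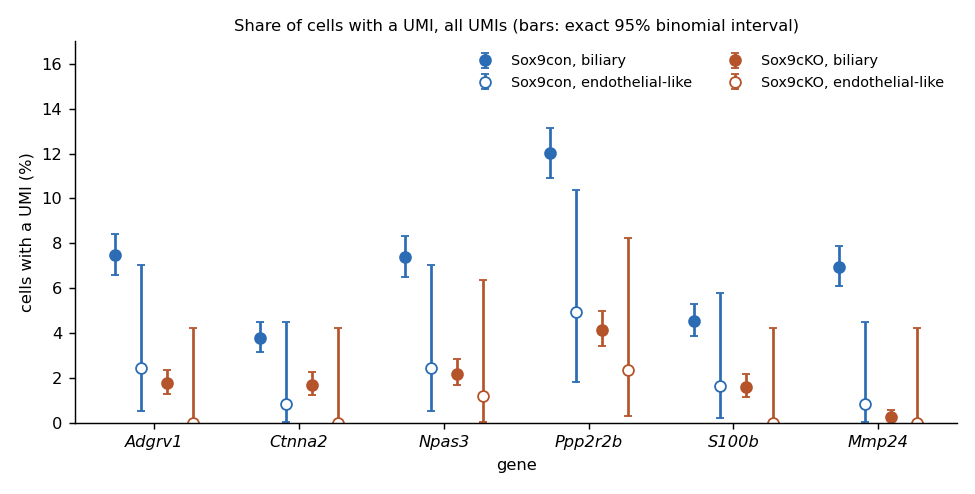
Share of cells with a UMI (y axis, percent) of each of the 6 genes (x axis), in biliary cells (filled) and endothelial-like cells (open) of the control-labelled (blue) and cKO-labelled (orange) library, with exact 95% binomial intervals. Control-labelled biliary cells are highest for every gene, from 3.77% for Ctnna2 to 12.01% for Ppp2r2b, while the endothelial-like intervals are wide and reach 10.4% for Ppp2r2b.

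Endothelial-like cells were taken as the background, and whether they lack these transcripts was not tested. In the control-labelled library they held 10 UMIs of Ppp2r2b in 6 of 122 cells (4.92%, 1.83 to 10.4), below the biliary share with no overlap of the intervals. Mmp24 had 1 UMI in 1 cell (0.820%, 0.0208 to 4.48), also without overlap. These cells were shallower than the biliary cells, and at 2000 UMIs in 75 of them the shares were 2.67% (0.325 to 9.30) for Ppp2r2b and 1.33% (0.0338 to 7.21) for Mmp24, whose intervals then overlapped the biliary ones of 6.95 to 8.99 and 3.43 to 4.94. The share intervals of the other 4 genes overlapped those of the biliary cells already at all UMIs. Adgrv1 had 4 UMIs in 3 cells (2.46%, 0.510 to 7.02), Npas3 had 7 UMIs in 3 cells (2.46%), each of which held at least 2, S100b had 4 UMIs in 2 cells (1.64%, 0.199 to 5.80) and Ctnna2 had 1 UMI in 1 cell (0.820%). The endothelial-like cells had levels of 26.6 CPM of Ppp2r2b against 68.4 in biliary cells, 18.6 against 33.9 of Npas3, 10.6 against 41.5 of Adgrv1, 10.6 against 14.3 of S100b, and 2.66 against 23.2 of Ctnna2 and 20.8 of Mmp24. The counting intervals of these levels were apart for 4 genes, with endothelial-like upper limits of 27.2 CPM for Adgrv1, 14.8 for Ctnna2 and Mmp24 and 48.8 for Ppp2r2b, and overlapped for Npas3 (7.47 to 38.3 against 30.7 to 37.3 CPM) and S100b (2.89 to 27.2 against 12.3 to 16.6 CPM). S100b was thus the gene whose biliary level stood least above this background. The only Ctnna2 UMI lay in the deepest of these cells, which held 44473 UMIs, and without that cell the levels of the other 5 were between 3.01 CPM for Mmp24 and 30.1 CPM for Ppp2r2b. In the cKO-labelled library endothelial-like cells held 3 UMIs of Ppp2r2b, 1 of Npas3 and 0 of the other 4. A count of 0 among these 85 cells allows a share of up to 3.53% by the limit of 3 counts (4.25% by the exact interval drawn in the plot of shares), which is above the biliary shares of Adgrv1, Ctnna2, S100b and Mmp24 in that library. Those cKO-labelled shares were therefore not distinguishable from background at this depth.

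In every one of the 4 control-labelled wells each gene was higher than in any of the 5 cKO-labelled wells. The genes were chosen on the sums of these same cells, so their order over wells and sublibraries describes the spread and supports nothing. The share of all tested genes whose wells lie apart in this way was not computed. Adgrv1 was at 50.2 CPM in D9, 38.0 in D10, 45.7 in D11 and 30.8 in D12, against 3.54 to 6.18 CPM in the cKO-labelled wells. Ctnna2 was at 26.1, 27.0, 26.8 and 12.9 CPM in the same wells, against 2.12 to 8.52. Its lowest control-labelled well, D12, thus came closest to the highest cKO-labelled well, B1. Npas3 was at 33.0, 36.05, 29.7 and 35.8 CPM, against 3.09 to 15.6. Ppp2r2b was at 72.7, 60.8, 75.3 and 65.6 CPM, against 9.90 to 23.3. These 2 genes were the most even over the control-labelled wells, with the highest well 1.22 and 1.24 times the lowest. S100b was at 9.22, 17.7, 17.4 and 15.2 CPM, against 1.57 to 5.19. Mmp24 was at 15.4, 23.5, 29.2 and 19.2 CPM, against 0 to 0.786 in the cKO-labelled wells, where 1 to 3 UMIs were seen in 4 wells and 0 in A11. D9, the well with most Sox9, was the highest of its library for Adgrv1 and the lowest for S100b and Mmp24. Each of the 8 sublibraries held cells of both libraries, and all 6 genes were lower in the cKO-labelled cells of every sublibrary except for Ctnna2 in 1.

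**Figure D2:**
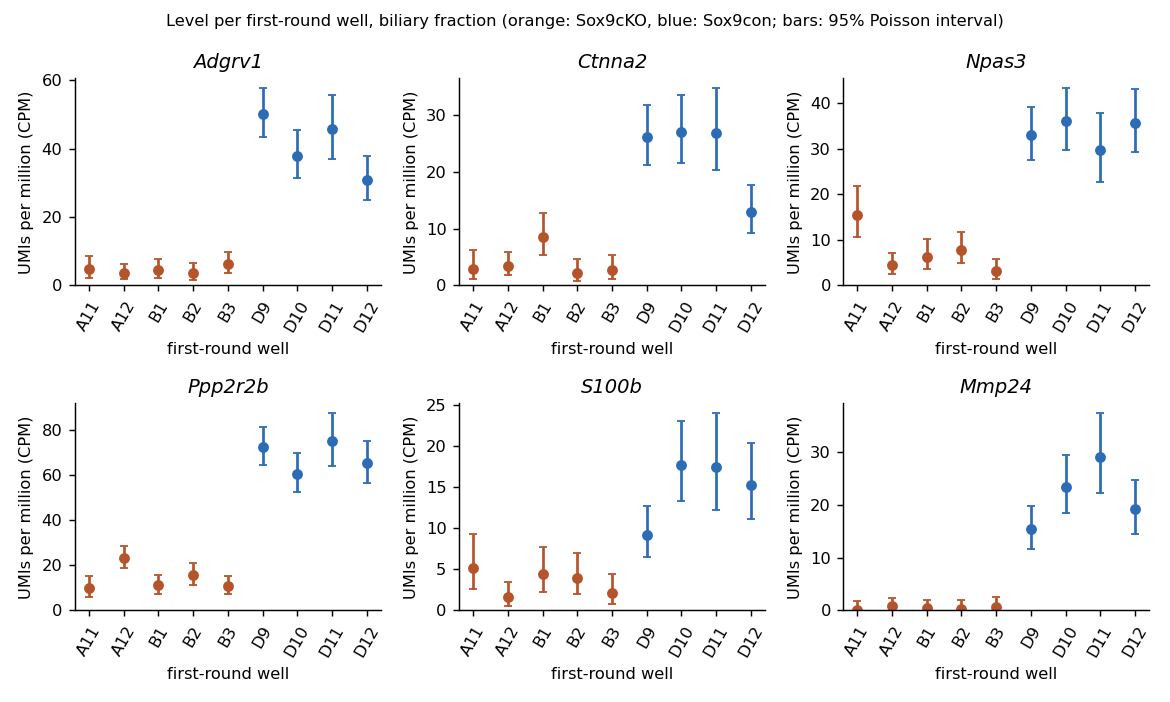
Level of each gene (y axis, CPM, 1 panel per gene) in each first-round well (x axis), biliary fraction, with 95% Poisson intervals; cKO-labelled wells are orange and control-labelled wells blue. No control-labelled well falls to the level of a cKO-labelled well for any gene, and Ctnna2 in D12 (12.9 CPM) comes closest to the other library (8.52 CPM in B1).

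Within the control-labelled biliary cells the 6 transcripts did not lie in 1 set of cells. The cells were clustered without these genes and without Sox9, and 6 clusters held at least 50 control-labelled cells. Cluster 2, whose leading genes include Dcx, Cldn10, Rhoj and Apoc1, held 958 of the 3365 cells, and cluster 9, led by genes that include Scin, Mmp25 and Dnah12, held 177. Leading genes were ranked over both libraries. Of the cells of cluster 2, 92.6% were control-labelled, and of those of cluster 9, 76.6%, so these ranks do not clearly tell cluster from library. Adgrv1 was at 121 CPM (109 to 133) in cluster 2 and 119 CPM (92.7 to 151) in cluster 9, which did not differ beyond counting error, and at 1.05 to 4.41 CPM in clusters 3, 4, 5 and 7. The latter levels were below the endothelial-like background of 10.6 CPM, but that value rests on 4 UMIs. Its interval of 2.89 to 27.2 CPM overlapped those of all 4 clusters. Cluster 2 held 80.0% of the Adgrv1 UMIs. Ctnna2 followed the same order, with 67.5 CPM (59.0 to 77.0) in cluster 2, 31.6 CPM (18.7 to 49.9) in cluster 9 and 0.882 to 5.80 CPM elsewhere. Npas3 was at 75.9 CPM in cluster 2 and 86.0 in cluster 9, at 19.9 CPM (15.9 to 24.4) in cluster 5, and at 3.53 to 6.40 in clusters 3, 4 and 7. These 3 genes thus marked the same pair of clusters.

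Ppp2r2b had a wider pattern that took in cluster 7 as well. It was at 168 CPM (143 to 197) in cluster 7, led by genes that include Ltf, Anxa10 and Trpm3, at 149 CPM (119 to 184) in cluster 9 and at 105 CPM (94.0 to 116) in cluster 2. Clusters 4, 3 and 5 followed at 53.1, 37.0 and 23.0 CPM. S100b was highest in the same cluster 7, at 52.3 CPM (38.8 to 69.0) in 22.4% of 192 cells, and was at 20.5 CPM in cluster 4, 17.6 in cluster 3 and 13.6 in cluster 5. In the clusters that held Adgrv1 it was nearly absent, at 2.70 CPM (1.24 to 5.13) in cluster 2 and 1.76 CPM, from 1 UMI, in cluster 9. Mmp24 differed least, with 17.6 to 23.2 CPM in all 6 clusters and intervals that all overlapped. Both libraries together, it was among the 10 leading genes of cluster 5. Of the cells of cluster 5, 94.0% were control-labelled, so that rank does not tell cluster from library. At Leiden resolution 1.0 Mmp24 ran from 14.4 to 29.8 CPM (22.9 to 38.2) in control-labelled cells, the latter apart from a cluster at 16.6 CPM (11.8 to 22.5). As a description over 6 clusters of 1 library, Pearson's r of log2(CPM + 10) was 0.94 between Adgrv1 and Ctnna2, 0.95 between Adgrv1 and Npas3, -0.87 between Adgrv1 and S100b and -0.16 between Adgrv1 and Mmp24. The genes most like each member by this measure were Ppp1r15a for Adgrv1, Dnajb1 for Ctnna2, Slc66a2 for Npas3, Elapor1 for Ppp2r2b, Tox for S100b and Cct7 for Mmp24, all with r of 0.99 or higher, which so few points reach easily. The contrast between clusters held in every control-labelled well. Adgrv1 was at 81.4 to 147 CPM in cluster 2 and at 5.27 to 16.9 CPM outside it over the 4 wells, and Ctnna2 was at 32.3 to 84.2 and 3.95 to 7.86 CPM.

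**Figure D3:**
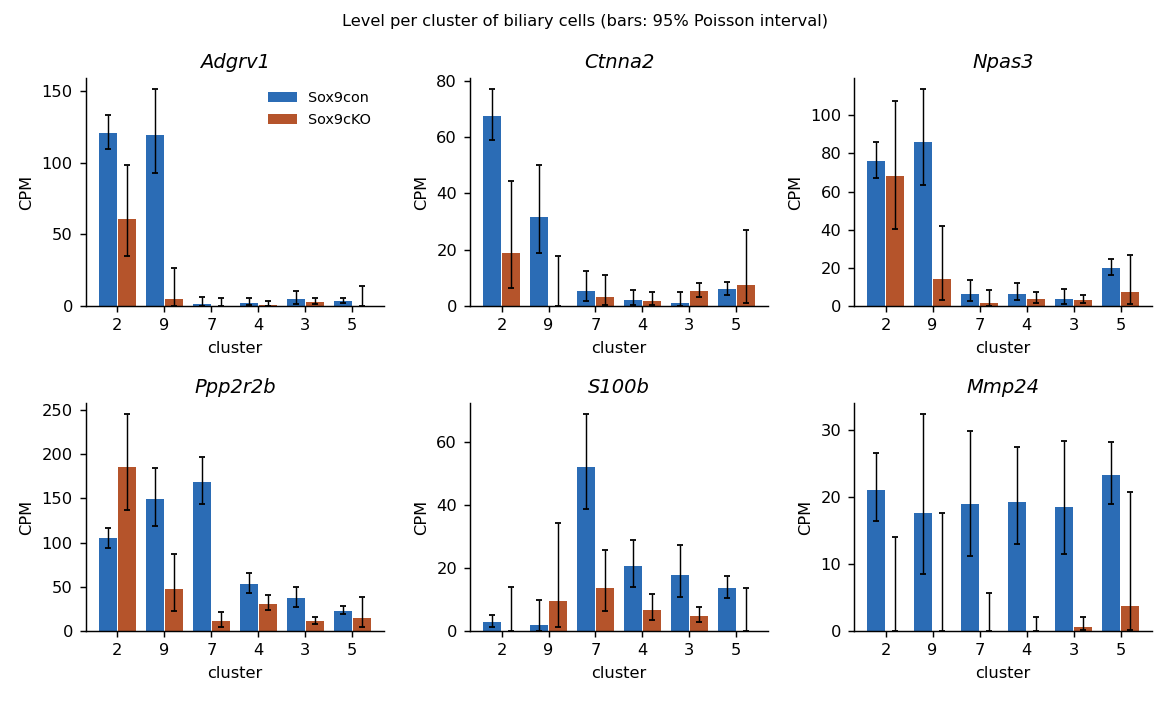
Level of each gene (y axis, CPM, 1 panel per gene) in the 6 clusters with at least 50 cells of each library (x axis, cluster number), control-labelled in blue and cKO-labelled in orange, with 95% Poisson intervals. Adgrv1, Ctnna2 and Npas3 stand out in clusters 2 and 9 of the control-labelled library, S100b in cluster 7, and Mmp24 is between 17.6 and 23.2 CPM in all of them.

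The few cKO-labelled cells in the same clusters gave a different picture for each gene. Cluster 2 held 77 cKO-labelled cells, and cluster sizes differed widely between the libraries. Clusters 0 and 1 held 729 and 528 cKO-labelled cells but 4 and 3 control-labelled ones, and they are not drawn in the plot of clusters. They held 29.0% and 24.3% of all cKO-labelled UMIs, 18.8% and 37.5% of those of Adgrv1 and 19.4% and 38.8% of those of Npas3. Conversely, clusters 2 and 5 held 958 and 1433 control-labelled cells, the latter against 92. How far the library ratios follow cluster make-up was not tested. In cluster 2 Npas3 was at 68.2 CPM in cKO-labelled cells, next to 75.9 CPM in the others, a log2 ratio of -0.15 (-0.93 to 0.53) that did not exceed counting error. Adgrv1 was at 60.6 against 121 CPM (-0.99, -1.82 to -0.28) and Ctnna2 at 18.9 against 67.5 CPM (-1.82, -3.47 to -0.59). Cluster 9, with 54 cKO-labelled cells, showed lower levels of all 3, with Npas3 at 14.3 against 86.0 CPM (-2.49, -4.92 to -0.96), Adgrv1 at 4.75 CPM, from 1 UMI, against 119 CPM, and Ctnna2 with 0 against 18 UMIs. Ppp2r2b was higher in the cKO-labelled cells of cluster 2, at 186 against 105 CPM, but 32 of those 49 UMIs came from 1 cell, and without it the level was 65.9 CPM. In cluster 7 Ppp2r2b was at 10.6 against 168 CPM (log2 ratio -3.92, interval -5.33 to -2.92) and S100b at 13.6 against 52.3 CPM (-1.90, -3.16 to -0.91). Clusters 3 and 4 held more cKO-labelled than control-labelled cells, and there S100b was at 4.64 against 17.6 CPM and at 6.62 against 20.5 CPM. Ctnna2 went the other way in cluster 3, with 18 cKO-labelled UMIs against 1, a log2 ratio of 2.31 (-0.10 to 7.95) that did not exceed counting error. Mmp24 had 0 cKO-labelled UMIs in clusters 2, 4, 7 and 9, 2 in cluster 3 and 1 in cluster 5. In cluster 4 a floor of 3 UMIs corresponds to 1.66 CPM, against 19.2 CPM in the control-labelled cells, whereas in cluster 2 the floor is 11.4 CPM against 21.0. The Mmp24 ratio was below 0 beyond counting error in 5 of these 6 clusters, cluster 9 excepted, and that of Npas3 was so in cluster 9 alone. The ratios within clusters split the same sums on which the genes were chosen, so their direction supports nothing. Such a count over all tested genes was not made. None of the 9 clusters named biliary had a biliary marker among its 10 leading genes, and clusters 3 and 5 had 1 mesothelial marker each (Msln and Upk3b). Over all kept cells, where cluster names do not enter, the log2 ratios ran from -5.31 for Mmp24 to -2.15 for S100b.

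Cells seldom held more than 1 of the 6 transcripts. A UMI of at least 1 was found in 1117 of 3365 control-labelled biliary cells (33.2%), of at least 2 in 258 (7.67%, 6.79 to 8.62), of 3 in 28, of 4 in 7 and of 5 or 6 in 0. At 2000 UMIs per cell 108 of 2802 cells (3.85%, 3.17 to 4.63) held 2 or more, against 76.4 expected if each transcript were placed without regard to the others. The pairs with the largest excess were those of Adgrv1. Adgrv1 and Ctnna2 shared 14 cells where 4.01 were expected, Adgrv1 and Npas3 shared 20 against 6.81, and Adgrv1 and Ppp2r2b shared 25 against 11.7. Ctnna2 and Ppp2r2b shared 12 against 6.02. Of cells with Adgrv1, 13.5% (8.45 to 20.1) held Npas3, against 4.11% of cells without it. Npas3 and Ppp2r2b shared 11 cells against 10.2, so that these 2 were each found with Adgrv1 but not more often with each other. In contrast, Adgrv1 shared 0 cells with S100b, where 4.23 were expected, and 2 cells with Mmp24, where 6.13 were expected. Npas3 and Mmp24 shared 8 cells against 5.34. Pairs of S100b or Mmp24 with Ppp2r2b, and of the 2 with each other, lay between 5 and 13 shared cells against 3.31 to 9.19 expected.

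Part of the sharing followed the clusters. Within cluster 2 alone, again at equal depth, Adgrv1 and Ctnna2 shared 12 cells against 8.60 expected, Adgrv1 and Npas3 shared 16 against 11.98, and Adgrv1 and Ppp2r2b shared 24 against 15.7. Adgrv1 and Mmp24 shared 1 cell there against 5.07. Among Ctnna2, Npas3 and Ppp2r2b there was no like excess at this depth. Ctnna2 and Ppp2r2b shared 8 cells against 7.37, Ctnna2 and Npas3 shared 5 against 5.64, and Npas3 and Ppp2r2b shared 6 against 10.3. The share of Adgrv1 cells with Npas3 in cluster 2 was 13.4% (7.88 to 20.9), and that of the other cells was 9.45%, within this interval. At all UMIs in cluster 2, Ctnna2 and Ppp2r2b shared 20 cells against 16.3 expected, and Ctnna2 and Npas3 17 against 13.2. Adgrv1 and Npas3 then shared 37 against 29.1, and Npas3 and Ppp2r2b 21 against 25.5. An excess within cluster 2 was thus not clearly particular to the pairs of Adgrv1. The cKO-labelled library had 26 of 2602 cells with 2 or more of the transcripts, and its most frequent pair was Npas3 with Ppp2r2b in 7 cells against 2.37 expected, at all UMIs.

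**Figure D4:**
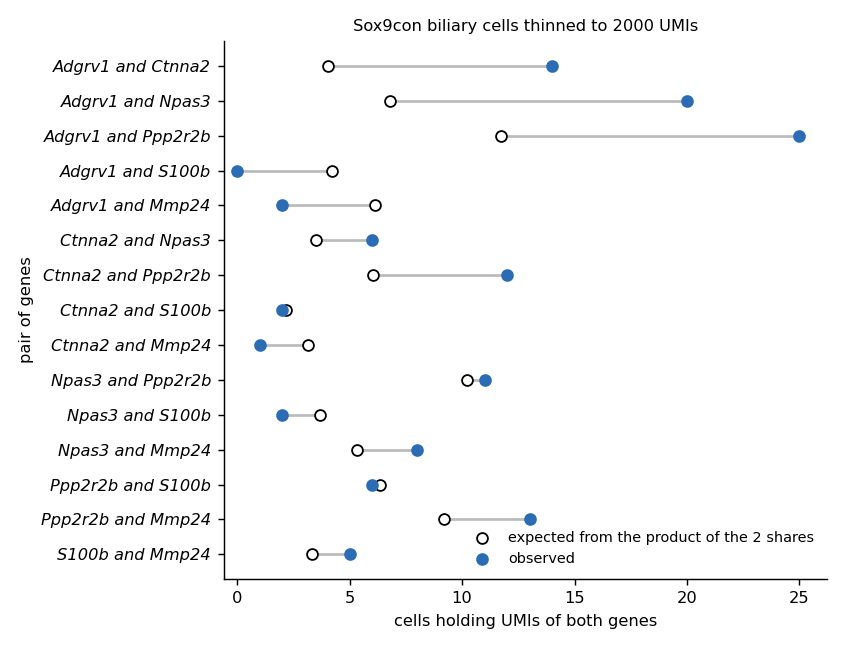
Number of control-labelled biliary cells, each thinned to 2000 UMIs, that held both genes of a pair (x axis), for the 15 pairs (y axis), observed (blue) and expected from the product of the shares (open). The pairs of Adgrv1 with Ppp2r2b (25 cells), Npas3 (20) and Ctnna2 (14) lie to the right of the expected number, and Adgrv1 with S100b (0) to the left.

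The cells with these transcripts carried biliary markers. All came from clusters named biliary by such markers, Epcam and Spp1 among them, so the presence of these markers follows from the choice of cells. Epcam, an epithelial adhesion molecule, was detected in 88.8% of cells with Adgrv1, 91.3% with Ctnna2, 90.3% with Npas3, 92.1% with Ppp2r2b, 96.1% with S100b and 91.0% with Mmp24, against 91.8% to 92.2% of the cells without each. Spp1, the gene of osteopontin, was detected in at least 96.1% of the cells with any of them. The keratins differed. Krt7 was at 85.1 CPM in cells with Adgrv1 and 309 CPM in those without, and Krt19 at 561 against 1727 CPM. In cells with S100b the order was the opposite, with Krt7 at 392 against 283 CPM and Krt19 at 2068 against 1597 CPM. Cftr, the chloride channel of bile duct cells, was at 716 against 297 CPM in cells with and without Adgrv1, and Sox9 at 281 against 132 CPM. In cells with S100b they were at 247 against 339 and at 107 against 148 CPM. Cells with Mmp24 were near the others in Krt7 (338 against 286 CPM), Krt19 (1628 against 1624) and Sox9 (139 against 146). The summed level of 11 endothelial markers was 90.7 CPM in cells with Adgrv1 and 38.7 CPM in those without, against 13277 CPM in endothelial-like cells, and its part in the Adgrv1 counts was not tested.

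The genes with the highest ratio of level in cells with a member over cells without it, among genes with at least 200 control-labelled UMIs and 20 in the cells with the member, were named by rank. For Adgrv1 they were Ctnna2 (95.4 against 16.2 CPM), Rgs5 (438 against 81.4 CPM), Hdx, Peg3 and Kcnip4, and Rgs5, a regulator of G protein signalling, was detected in 49.0% of cells with Adgrv1 and 13.04% of those without. For Ctnna2 they were Nos2, Adgrv1, Top2a, Kcnip4 and A230001M10Rik, of which Nos2 and Top2a rested on 10 and 9 cells. For S100b they were C4bp, Trpm3, Kcnb2, Ly6m and Muc4, a membrane mucin detected in 34.0% of cells with S100b and 8.28% of those without. For Ppp2r2b and Npas3 the first was Muc6, but 1 cell held 305 of its UMIs, 84.3% and 90.5% of the sums. After it came Chst9, Mmp25, Dnah12 and A230001M10Rik for Ppp2r2b, and Fanci, Epha7, Plcl1 and Dnah12 for Npas3. For Mmp24 they were Chst9, Slc28a3, Gm35533, Cnksr2 and Inhba, and only Slc28a3, a nucleoside transporter, was in a clearly different share of cells (33.3% against 10.5%).

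The tested relatives of each gene kept within 2-fold, Cdh2 excepted. Most tested genes did so, 1.79% of all being at least 2-fold lower, and the members were chosen for being low. That a member stands alone in its list is therefore no result about the family. Of 10 catenins and cadherins, all with at least 200 UMIs, Ctnna2 alone was at least 2-fold lower, while the epithelial alpha-catenin Ctnna1 was at 1026 CPM against 1105 CPM in control-labelled cells and Cdh2, neuronal cadherin, was higher (33.4 against 11.8 CPM, log2 ratio 1.502). The share of all genes at least 2-fold higher was 2.21%. Of 11 PP2A subunits, Ppp2r2b alone passed, and the catalytic Ppp2ca was at 230.1 and 298 CPM and the widely expressed B subunit Ppp2r2a at 257 and 241 CPM. Of 8 bHLH-PAS factors tested, Npas3 alone was at least 2-fold lower, and its possible partner Arnt was at 80.4 and 71.5 CPM. Of the proteins that join Adgrv1 at stereocilia, Whrn, Ush1c and Myo7a were tested and none was 2-fold apart. Of 6 membrane-type metalloproteinases and their inhibitors tested, Mmp24 alone passed, with Mmp14 at 140.3 and 148 CPM and Mmp25 at 8.90 and 17.1 CPM. Relatives under 200 UMIs were not tested, among them Mmp17 (5 cKO-labelled and 23 control-labelled UMIs) and Arnt2 (70 and 23).

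In the S100 family the 8 tested genes had a median log2 ratio of -0.80, against -0.07 over all tested genes. Over tested genes that span under 30 kb the median was -0.19. Apart from S100b, the spans of the S100 genes were not compared. S100b alone of these 8 was past 2-fold. S100g was too low to be tested, but its 22 cKO-labelled and 99 control-labelled UMIs give a log2 interval of -3.15 to -1.73. S100a10 was at 342 CPM in cKO-labelled cells and 599 CPM in the others, S100a16 at 60.02 and 114 CPM and S100a6 at 171 and 234 CPM. The list holds the member that was chosen for being low.

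Markers of nerve cells were checked because the genes are known from them. Of 14 neuronal markers 10 had at most 10 UMIs in all control-labelled biliary cells, among them Tubb3 (9), Syp (5), Snap25 (2), Rbfox3 (3) and Stmn2 (1). Map2 was abundant in both libraries, at 176 and 203.5 CPM. Dcx, a microtubule protein of migrating neurons, had 5 cKO-labelled and 135 control-labelled UMIs, and its control-labelled cells lay where Adgrv1 was highest, at 30.3 CPM in cluster 2, 29.8 CPM in cluster 9 and at most 3.35 CPM in the other 4. Elavl3, a neuronal RNA-binding protein, was at 54.4 CPM in cluster 9 and 16.2 CPM in cluster 2. Of 12 Schwann and glial markers, Sox10 and Gfap had 0 control-labelled UMIs, Foxd3 and Cdh19 had 0 in both libraries, Mbp was at 192 and 198 CPM, and Ncam1 was higher in the cKO-labelled cells (189.5 against 24.8 CPM, log2 ratio 2.93). Neuroendocrine markers, 11 in number, summed to 5.35 CPM in the control-labelled cells and 10.1 CPM or less in the cells with any member. The summed level of the neuronal list was 349 CPM in cells with Adgrv1, 191 CPM in cells with S100b and 242.5 CPM over all control-labelled biliary cells. Most defining markers of neurons, glia and neuroendocrine cells were thus at or near 0 in the cells measured, with Map2, Syt1, Mbp, Erbb3 and Ncam1 the 5 that passed the limit of 200 UMIs.

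A property that the choice did not use was gene span. Adgrv1 spans 538 kb, Ctnna2 1098 kb, Npas3 823 kb and Ppp2r2b 422 kb in the GENCODE M21 annotation, and 0.268% to 1.81% of tested genes are as long. S100b (7.31 kb) and Mmp24 (43.0 kb) are of ordinary span. Of the 322 tested genes over 300 kb, 4 are these members, which were chosen for being lower. Of the other 318, 9 (2.83%) were at least 2-fold lower and 7.55% at least 2-fold higher, and their median log2 ratio was 0.07. Without the members, 2.76% of genes under 30 kb were lower, with a median of -0.19. The shares lower were 0.535% for 30 to 100 kb, 0.703% for 100 to 300 kb and 1.72% for all matched genes. Leaving out the members was chosen after seeing the data. Of the members, 3 overlap a gene on the other strand that had more than 2 UMIs in a library: S100b overlaps Dip2a (328 cKO-labelled and 244 control-labelled UMIs), Mmp24 overlaps BC029722 (106 and 157) and Adgrv1 overlaps 9330111N05Rik (47 and 76). The use of strand in the counting is not given in the sources used here, so some reads of these pairs cannot be told apart. Genes on the other strand of Ctnna2 and Npas3 had at most 2 UMIs in a library. No gene that overlaps a member on its own strand had more than 1 UMI.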

How the data were processed

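Single-cell transcripts of biliary epithelial cells were measured in 1 library per genotype label. The authors deposited whole-number UMI counts per gene and cell, with a gene and a cell table. Per the submitters' processing notes the build is GRCm39. The aligner, the annotation and the calling of cells are not given in the sources used here.

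From those counts, cells with at least 500 genes, 1000 UMIs and at most 15% mitochondrial UMIs were kept (2712 cKO-labelled, 3505 control-labelled). Scrublet in scanpy 1.11.5 marked 3 of 6362 cells (0.0472%), too few to have worked, and these were removed. Both libraries were clustered together without the 6 genes and Sox9 (2000 variable genes, 30 components, 15 neighbours, Leiden resolution 0.5). A cluster took the class with the highest share of its listed markers at 50 CPM, with at least 3 of them. No name was given where the 10 leading genes all lay over 8 log2 units above the rest with no own marker, a limit set after the data were seen. The 9 clusters named biliary form the biliary fraction. Sums were scaled to CPM, log2 ratios add 0.5 counts, and a gene was tested where both libraries together had 200 UMIs or more. Intervals are exact 95% Poisson, Clopper-Pearson and conditional binomial intervals. They cover counting error only. For equal depth, cells were thinned to 2000 UMIs. A share at 0 was given the limit of 3 counts. No p-value was computed. The ratio code was tested on simulated data.

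The members, gene lists and rules were chosen with earlier results of these data known. The genes named are the 6 members, Sox9, the listed relatives and nerve-cell markers, the 5 genes most raised in cells with each member and the 3 most alike over clusters, of which the first is given. Gene spans come from GENCODE M21 on GRCm38, matched by Ensembl ID, and promoters from RefSeq on GRCm38.p6, since no table of the files' build was used. The design had set the span comparison for the files' own build only, so this departs from it. Promoters were matched by symbol, and 5 are described.

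Alternatives used TMM factors (edgeR 4.0.16), DESeq2 1.42.0 size factors, other cell and gene filters, thinning, left-out wells and other clusterings.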

Additional observations from a re-analysis of the deposited data

How the results depend on the processing

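In all 102 recomputations the log2 ratios of the 6 genes stayed below -1, which is the direction that fixed their choice, and 99 stayed inside the counting interval. Those outside came from leaving out 1 well. Over left-out wells the ratio of Ctnna2 ran from -3.02 (without B1) to -2.41, of Npas3 from -2.67 (without A11) to -2.12 and of Ppp2r2b from -2.51 (without A12) to -2.09. The count of genes at least 2-fold lower was 167 of 9326 tested, and 127 to 421 over left-out wells, the highest without D9. At gene minimums of 100, 20 and 1 UMI it was 266, 739 and 4232, and the count higher, 206 in the main setting, was 622 and 3868 at the latter 2. With TMM or DESeq2 factors the counts lower were 129 and 127. Thinning to 2000 UMIs lowered the control-labelled shares of cells to 5.28% for Adgrv1, 2.71% for Ctnna2, 4.60% for Npas3, 7.92% for Ppp2r2b, 2.86% for S100b and 4.14% for Mmp24, and the share with at least 2 members to 3.85%, as fewer UMIs are drawn. Over left-out wells the share for Adgrv1 ran from 6.35% (without D9) to 7.96%, for Ppp2r2b from 10.7% to 12.7%, and with at least 2 members from 6.75% to 8.31%. At Leiden resolution 1.0 the highest level over clusters was 85.3 CPM for Ctnna2 and 29.8 CPM for Mmp24, and the cause was not tested. The left-out wells of the gene counts and the left-out top cells were chosen after seeing the data. No paired analysis was possible because each label has 1 library. Depth limits what the endothelial-like cells and the cKO-labelled cells of clusters 2, 5 and 9 can show.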
